A study of Homo sapiens with 15 samples.

Results

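The 47 genes described here are interferon-stimulated genes, taken by name from a list of transcripts that cells raise when they meet an interferon. Of the 47, 45 were among the 18322 genes of the deposited expression table, and 44 passed the filter on low values, which kept 17012 genes with at least 10 normalized reads in at least 3 libraries. RSAD2 and EPSTI1 are not analysed here, and IFI27 was listed but stayed under the filter. The RNA came from A375, a line of human melanoma cells whose BRAF kinase carries an activating mutation, in 5 groups of 3 libraries that the submitters give as biological triplicates. The groups were resistant cells labelled shMYC1, resistant cells labelled shMYC2, parental cells with MYC T58A, the Resistant cells themselves and the Parental line. Both hairpin labels name a short hairpin RNA against the transcription factor MYC in Resistant cells, and T58A is a form of MYC that is degraded more slowly. Resistant is a single clonal population that withstands PLX4720, an inhibitor of mutant BRAF, so its 3 libraries carry no variation between independent resistant populations. All cells were grown in ordinary culture. The labels name no interferon treatment, and they give neither the vectors used nor whether drug was present at harvest.

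Interferons are secreted signalling proteins that bind receptors at the cell surface. The receptors switch on the kinases JAK1 and TYK2, which phosphorylate STAT proteins. STAT2 and IRF9 take part in a complex called ISGF3, which enters the nucleus and binds a short DNA element, the interferon-stimulated response element or ISRE, in the promoters of many genes. A related route, driven mainly by interferon gamma, acts through a palindromic element called GAS. The induced genes encode sensors of foreign RNA and DNA, transcription factors that pass the signal on, and effectors that cut or trap viral RNA, block translation or hold virus particles at the membrane. Many tumour lines, melanoma lines among them, keep part of this programme on without added interferon.

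The promoters of the members were searched for the letters of the ISRE and of GAS. A promoter of 250 bases before to 50 bases after the RefSeq transcription start (build GRCh38.p14) was given for 37 of the 47 members, with DDX58 found under its newer symbol RIGI. For 23 of the 37, bases after this start were found at the start of a GENCODE transcript, so the other starts are less certain. Some members had more than 1 promoter, such as MX1 with 3, and counted if any held the letters. The letters GAAANNGAAA, searched on both strands as a simple form of the ISRE, occurred in 26 of these 37 (70.3%), against 3.57% of all 35116 promoters in the table and 4.38% of its 27305 gene symbols. The letters TTCNNNGAA, a simple form of GAS that is its own reverse complement, occurred in 12 of 37 (32.4%), against 7.66% of all promoters and 9.38% of gene symbols. A match is a run of letters and not a measured binding site. The windows below are printed for 12 members whose levels carry the differences described further on. They read from 5′ to 3′ along the gene's own strand, and the match is in capitals with 20 bases on each side. Where the capitals start with TTTC, the match lies on the opposite strand.
IFI44L at chr1:78620264-78620313 (+ strand): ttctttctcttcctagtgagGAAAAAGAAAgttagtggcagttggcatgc
IFI44L at chr1:78620355-78620404 (+ strand): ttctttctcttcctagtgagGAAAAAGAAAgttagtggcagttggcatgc
GBP1 at chr1:89065306-89065355 (- strand): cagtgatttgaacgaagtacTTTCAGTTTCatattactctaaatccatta
MX1 at chr21:41431834-41431883 (+ strand): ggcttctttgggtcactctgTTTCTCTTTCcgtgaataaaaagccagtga
IFIH1 at chr2:162318808-162318857 (- strand): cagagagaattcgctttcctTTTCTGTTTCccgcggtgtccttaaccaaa
IFIT3 at chr10:89327855-89327904 (+ strand): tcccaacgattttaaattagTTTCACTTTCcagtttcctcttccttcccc
ISG15 at chr1:1013370-1013419 (+ strand): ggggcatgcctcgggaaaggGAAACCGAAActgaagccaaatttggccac
HERC5 at chr4:88457025-88457074 (+ strand): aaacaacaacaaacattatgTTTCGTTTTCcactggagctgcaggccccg
BST2 at chr19:17405731-17405780 (- strand): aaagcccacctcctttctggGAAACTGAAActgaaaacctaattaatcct
LGALS3BP at chr17:78979952-78980001 (- strand): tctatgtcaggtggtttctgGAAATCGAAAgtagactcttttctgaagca
OAS3 at chr12:112938311-112938360 (+ strand): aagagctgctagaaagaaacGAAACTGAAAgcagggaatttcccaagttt
IFITM3 at chr11:320866-320915 (- strand): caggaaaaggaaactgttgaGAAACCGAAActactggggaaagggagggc
ISG20 at chr15:88638927-88638976 (+ strand): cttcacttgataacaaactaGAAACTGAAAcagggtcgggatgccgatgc
The 2 windows of IFI44L are the same 50 letters, whose matches start 164 and 73 bases before the start of transcription, so this promoter holds a repeated stretch. The searched letters stand before genes whose highest mean was in Resistant (IFI44L, GBP1, MX1, IFIH1, BST2, LGALS3BP). Of these, MX1, IFIH1, BST2 and LGALS3BP also had their lowest mean in shMYC2-labelled cells. The letters also stand before genes called higher in shMYC2-labelled cells than in Resistant (ISG15, HERC5). Among tested members with a promoter given, 23 held the ISRE letters and 11 did not. In Resistant against Parental, 13 of the 23 were called higher and 1 lower, and of the 11 without the letters 6 were higher and 1 lower, where 27.2% of all tested genes were called higher and 24.4% lower. In shMYC2-labelled cells against Resistant, 4 of the 23 were called higher and 17 lower, and of the 11 without the letters 2 were higher and 7 lower, where 36.2% of all tested genes were called higher and 43% lower.

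The libraries held 24222192 to 30399644 reads in genes, and libraries of one group correlated across genes at r = 0.99 to 0.994. The 3 shMYC2-labelled libraries stood apart, with r = 0.828 to 0.848 against the other 12, whereas the other groups stood at 0.928 to 0.975 against each other. The shMYC1-labelled libraries were closer to Parental (r = 0.973 to 0.975, chi-square per gene 33.8 to 51.9) than to Resistant (r = 0.943 to 0.948, chi-square per gene 104 to 137), the cells their label names. The shMYC2-labelled libraries held 1636 to 1694 genes without a read, whereas each of the other 12 held 296 to 665. The second shMYC1-labelled library lay furthest from its own group, with a chi-square per gene of 26.9 and 18.3 against its partners, whereas the remaining pairs reached at most 7.5. The transcript of MYC went against both hairpin labels. It had 459, 518 and 481 normalized reads in shMYC1-labelled cells, 7760, 8100 and 7590 in shMYC2-labelled cells, 3612, 3425 and 3496 in MYC T58A, 330, 274 and 304 in Resistant and 436, 419 and 413 in Parental. Against Resistant, MYC was thus 1.61-fold higher under the shMYC1 label (log2 difference 0.68, SE 0.0635, adjusted p = 4.43e-08). Under the shMYC2 label it was 25.8-fold higher (log2 difference 4.69, SE 0.0635, adjusted p = 1.74e-20), so both hairpin groups are named by their labels only. Markers of A375's own melanocyte lineage and of other cells moved between groups. Of 10 melanocyte markers, 7 were in the table, and their summed level ran over 13284 to 15654 normalized reads under the shMYC1 label, 198 to 247 under the shMYC2 label with DCT at 0, 3586 to 3982 with MYC T58A, 3568 to 4017 in Resistant and 6960 to 7281 in Parental. All 7 fibroblast markers were in the table, with sums of 404 to 416 under the shMYC1 label, 456 to 481 under the shMYC2 label, 525 to 578 with MYC T58A, 3959 to 4169 in Resistant and 506 to 570 in Parental. Of 10 immune cell markers 2 were in the table, LYZ and CD68, with sums of 243 to 278 under the shMYC1 label, 26.9 to 41.9 under the shMYC2 label, 18 to 30.8 with MYC T58A, 69.4 to 72.8 in Resistant and 182 to 217 in Parental. The 3 of 4 endothelial markers summed to at most 42.8 except under the shMYC1 label (107 to 141), and the 3 of 5 keratinocyte markers to 1638 to 2116 under that label and 776 to 1177 elsewhere, with KRT5 at 0 under the shMYC2 label.

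Unless a sentence says otherwise, values are normalized reads in libraries 1, 2 and 3 of a group, log2 differences are fitted to log2(value + 1), and adjusted p-values come from limma's moderated test with Benjamini-Hochberg adjustment over all 17012 tested genes. A gene is called at an adjusted p under 0.05. With 3 libraries against 3, an exact two-sided permutation test of a single gene cannot go below 0.1, so the calls rest on a spread shared across genes. Each gene's own spread was taken over all 5 groups, and some genes were not called although the compared groups did not overlap. Between Resistant and Parental this holds for BST2, MX2, STAT2, IRF1, EIF2AK2 and IFI44. These are bulk libraries, in which fewer cells that express a gene and less RNA in each cell cannot be told apart.

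The list as a whole was highest in the Resistant cells and lowest in shMYC2-labelled cells. Of the 44 tested members, 27 had their highest group mean in Resistant, 8 in shMYC2-labelled cells, 4 in Parental, 3 in MYC T58A and 2 in shMYC1-labelled cells. Over all tested genes, 20.7% had their highest mean in Resistant and 31.6% in shMYC2-labelled cells. The lowest mean fell to shMYC2-labelled cells for 27 members (37.8% of all tested genes), to MYC T58A for 11 (21.6%), to shMYC1-labelled cells for 5 (13.6%) and to Resistant for 1, IRF7 (16.7%). XAF1 is counted for shMYC2-labelled cells but had no read in MYC T58A either. No member was lowest in Parental, where 10.4% of all tested genes were.

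**Figure D1:**
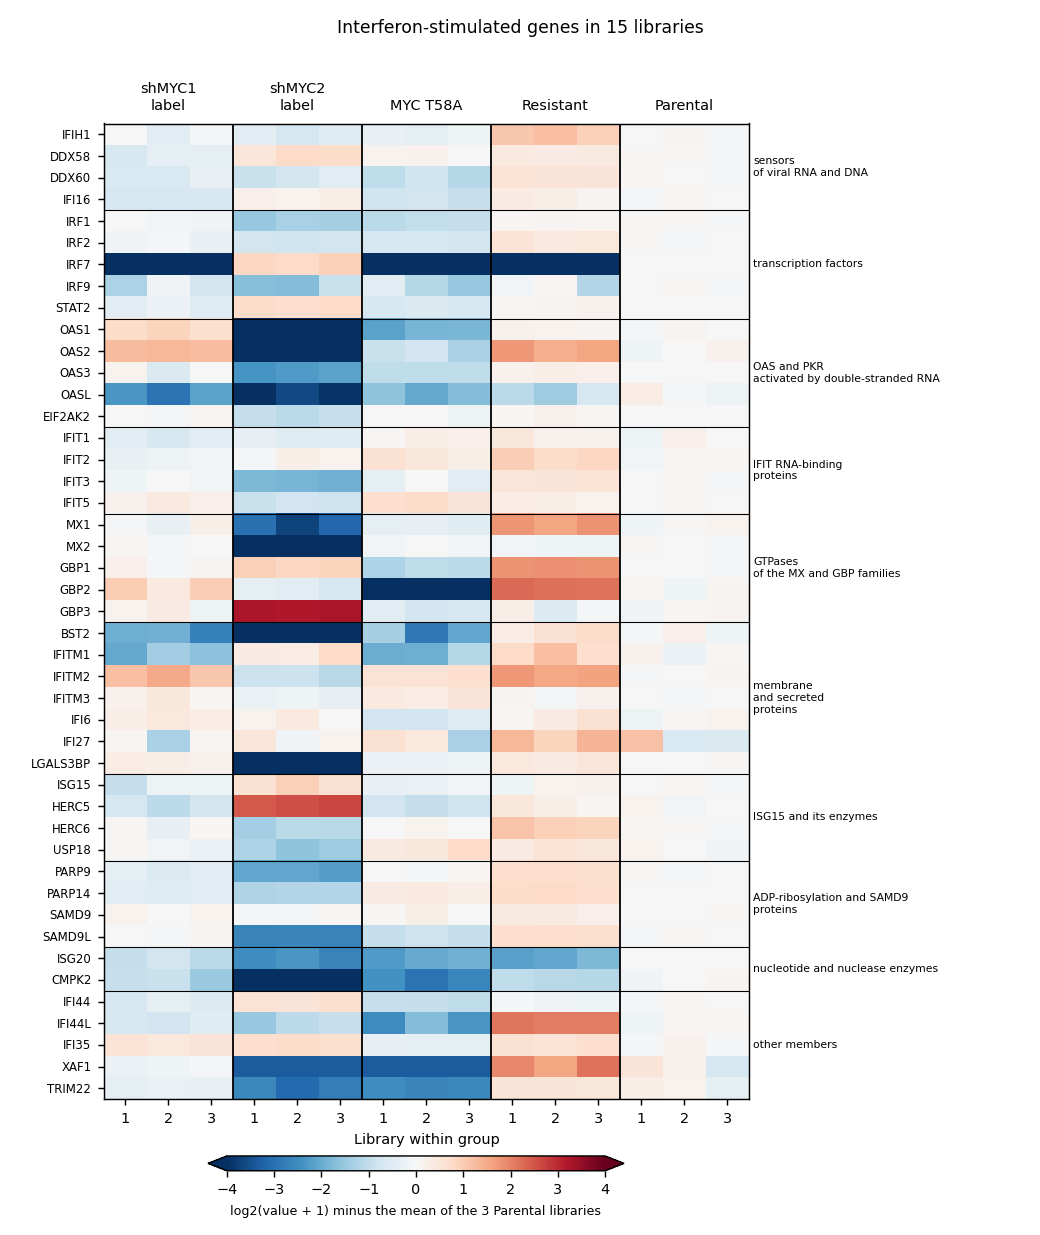
Each row is a member in the table and each column a library, coloured by log2(value + 1) minus the mean of the 3 Parental libraries, with colours ending at 4 in either direction. The Resistant columns are mostly red, the columns labelled shMYC2 hold dark blue for OAS1, OAS2, MX2, BST2, LGALS3BP and CMPK2, and IRF7 is dark blue in every library labelled shMYC1 and of MYC T58A and Resistant, and pale red in shMYC2-labelled cells.

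Resistant cells carried more of the interferon-stimulated transcripts than Parental cells. Of 44 tested members, 26 were called higher and 4 lower, where 27.2% of all tested genes were called higher and 24.4% lower. The median log2 difference was 0.38 over the members and 0.01 over all tested genes, and the called increases ran from 0.22 to 2.21. All 4 sensors and all 4 members of the PARP and SAMD9 group were called higher, as were 3 of 4 IFIT genes and 3 of 5 MX and GBP genes. Both enzymes of nucleotide and nuclease function, ISG20 and CMPK2, were called lower. Of the fibroblast markers 5 of 7 were called higher in the same comparison (summed level 3959 to 4169 in Resistant, 506 to 570 in Parental), and the melanocyte sum was lower in Resistant. Of the 7 melanocyte markers tested, 3 were called lower and 1 higher. The part of either in these differences was not tested.

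The largest increase in Resistant was that of GBP2, a guanylate-binding protein of the interferon-induced GTPases that attack membranes around pathogens. It had 255, 243 and 238 normalized reads in Resistant, against 55, 46.1 and 56.3 in Parental. Every Resistant library lay above every Parental one, and GBP2 was 4.68-fold higher (log2 difference 2.21, SE 0.208, adjusted p = 7.32e-08). GBP1, its close relative, had 559, 565 and 555 in Resistant and 161, 162 and 155 in Parental, 3.51-fold higher with replicates close together (log2 difference 1.81, SE 0.087, adjusted p = 1.08e-11). IFI44L, an interferon-induced gene with little known of its protein's action, had 528, 494 and 502 in Resistant and 106, 127 and 127 in Parental (log2 difference 2.08, SE 0.184, adjusted p = 3.44e-08). Its paralogue and neighbour IFI44 did not go with it, at 1956 ± 56.6 in Resistant and 2146 ± 64.7 in Parental (SD, n = 3 each; log2 difference -0.13, SE 0.062, adjusted p = 0.0804). XAF1, a promoter of cell death that binds the inhibitor XIAP, was scarce, with 37.4, 29.1 and 44.6 normalized reads in Resistant and 13.5, 10.2 and 5.22 in Parental, and was 3.84-fold higher (log2 difference 1.9, SE 0.336, adjusted p = 0.000119). The 3 Parental values of XAF1 spread more than 2-fold, yet none reached a Resistant value.

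Among the antiviral effectors, MX1, a dynamin-like GTPase that traps viral nucleocapsids, had 546, 484 and 557 in Resistant and 141, 167 and 176 in Parental (3.28-fold higher; log2 difference 1.71, SE 0.167, adjusted p = 1.12e-07). MX2, which acts on retroviruses at the nuclear pore, had 1995, 1879 and 1866 in Resistant and 2207, 2168 and 2028 in Parental and was not called (log2 difference -0.16, SE 0.12, adjusted p = 0.297). The RNA sensor IFIH1, also known as MDA5, had 254, 277 and 237 in Resistant and 118, 131 and 114 in Parental (2.11-fold higher; log2 difference 1.07, SE 0.126, adjusted p = 1.18e-06). The sister sensor DDX58, known as RIG-I, moved less, with 319, 309 and 312 in Resistant and 252, 254 and 231 in Parental (log2 difference 0.35, SE 0.0915, adjusted p = 0.0035). For both sensors the groups did not overlap. OAS2, one of the synthases that make the oligoadenylates by which RNase L is activated, had 433, 360 and 393 in Resistant and 115, 131 and 146 in Parental (log2 difference 1.59, SE 0.222, adjusted p = 9.18e-06), while OAS1 had 174, 170 and 166 in Resistant and 144, 166 and 151 in Parental (log2 difference 0.14, SE 0.218, adjusted p = 0.609). The OAS2 call was lost with a pseudocount of 0.1 (1.6, adjusted p = 0.0825). The OAS genes lie side by side, and the median difference of the 50 genes around OAS2 was 0.12.

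The membrane-bound IFITM proteins block the fusion of enveloped viruses. IFITM2 had 1461, 1277 and 1344 in Resistant and 417, 428 and 466 in Parental (3.11-fold higher; log2 difference 1.63, SE 0.0936, adjusted p = 1.04e-10). IFITM1 was near the floor of detection, with 19.2, 26.3 and 18.2 in Resistant and 12.5, 9.22 and 11.5 in Parental, and its call (log2 difference 0.88, SE 0.308, adjusted p = 0.0241) was lost without Parental library 2 (0.76) or Resistant library 2 (0.72). IFITM3, the most abundant of the 3, had 2783, 2502 and 2859 in Resistant and 2612, 2480 and 2591 in Parental, which overlap (log2 difference 0.08, SE 0.0817, adjusted p = 0.428). The 3 genes are close copies of each other, and how the authors treated reads that fit more than one of them is not given in the sources used here, so the split among them is uncertain. BST2, or tetherin, which ties budding virus to the cell surface, had 44.8, 56.4 and 61 in Resistant and 35.3, 42 and 32.3 in Parental and was not called (log2 difference 0.55, SE 0.377, adjusted p = 0.24). LGALS3BP, a secreted glycoprotein that binds galectins, was the member with the most reads, at 12444, 11776 and 13031 in Resistant and 9238, 9118 and 9573 in Parental (log2 difference 0.41, SE 0.0464, adjusted p = 6.38e-07).

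Members that were lower in Resistant were few, and IRF7, the transcription factor that amplifies interferon production, was the extreme. It had no read in the 3 Resistant libraries, against 64.4, 64.5 and 62.6 normalized reads in Parental. With 3 reads assumed in each Resistant library it was at least 21.9-fold lower (adjusted p = 1.97e-09), and the neighbouring genes differed by a median of -0.08. ISG20, an exonuclease that degrades RNA, had 120, 129 and 155 in Resistant and 547, 535 and 548 in Parental (4.04-fold lower; log2 difference -2.02, SE 0.124, adjusted p = 2.76e-10). CMPK2, a mitochondrial nucleotide kinase, had 30.9, 29.1 and 28.2 in Resistant and 58.1, 64.5 and 68.9 in Parental (log2 difference -1.09, SE 0.289, adjusted p = 0.00409), but its neighbours fell by a median of 0.7 on the log2 scale and the call was lost once that shift was taken off (-0.39). OASL, the fourth gene called lower, lacks the synthase activity of the other OAS proteins and had 35.2, 27.3 and 47.3 in Resistant and 92.4, 71.7 and 64.7 in Parental (log2 difference -1.06, SE 0.269, adjusted p = 0.00297). The other factors of the pathway in the list, IRF2 aside, were not called between these groups. STAT2 had 924, 947 and 998 in Resistant and 872, 892 and 871 in Parental (log2 difference 0.12, SE 0.0631, adjusted p = 0.119), IRF1 had 506, 520 and 509 in Resistant and 490, 499 and 450 in Parental (log2 difference 0.09, SE 0.0745, adjusted p = 0.31) while its neighbours differed by a median of -0.5, and IRF9 had 18.1, 20.7 and 8.19 in Resistant and 19.7, 20.5 and 18.8 in Parental (log2 difference -0.4, SE 0.38, adjusted p = 0.401).

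ISG15 itself, a ubiquitin-like protein attached to others, had 89.6, 111 and 114 in Resistant and 101, 103 and 98.1 in Parental, which overlap (log2 difference 0.05, SE 0.177, adjusted p = 0.842). EIF2AK2, the kinase PKR that halts translation when it meets double-stranded RNA, had 7806, 8324 and 7839 in Resistant and 7274, 7531 and 7464 in Parental and was not called (log2 difference 0.11, SE 0.059, adjusted p = 0.147). IFIT3, a scaffold among the IFIT proteins that bind foreign RNA, had 619, 635 and 645 in Resistant and 449, 462 and 424 in Parental (log2 difference 0.51, SE 0.0932, adjusted p = 0.000168), and IFIT1 had 143, 117 and 117 in Resistant and 89.3, 119 and 105 in Parental with overlap (log2 difference 0.27, SE 0.132, adjusted p = 0.101). The smaller increases of TRIM22, USP18 and IFI6 each turned on single libraries. Without Parental library 3, TRIM22 stood at 0.32 and USP18 at 0.36 and neither was called. Without Resistant library 3, IFI6 stood at 0.21. TRIM22 also lost its call without any 1 of the Resistant libraries (0.49 to 0.51) and with the shift of neighbouring genes taken off (0.32), USP18 without Resistant library 2 (0.39), and IFI6 without Resistant library 2 (0.34), Parental library 1 (0.24) or Parental library 2 (0.36).

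**Figure D2:**
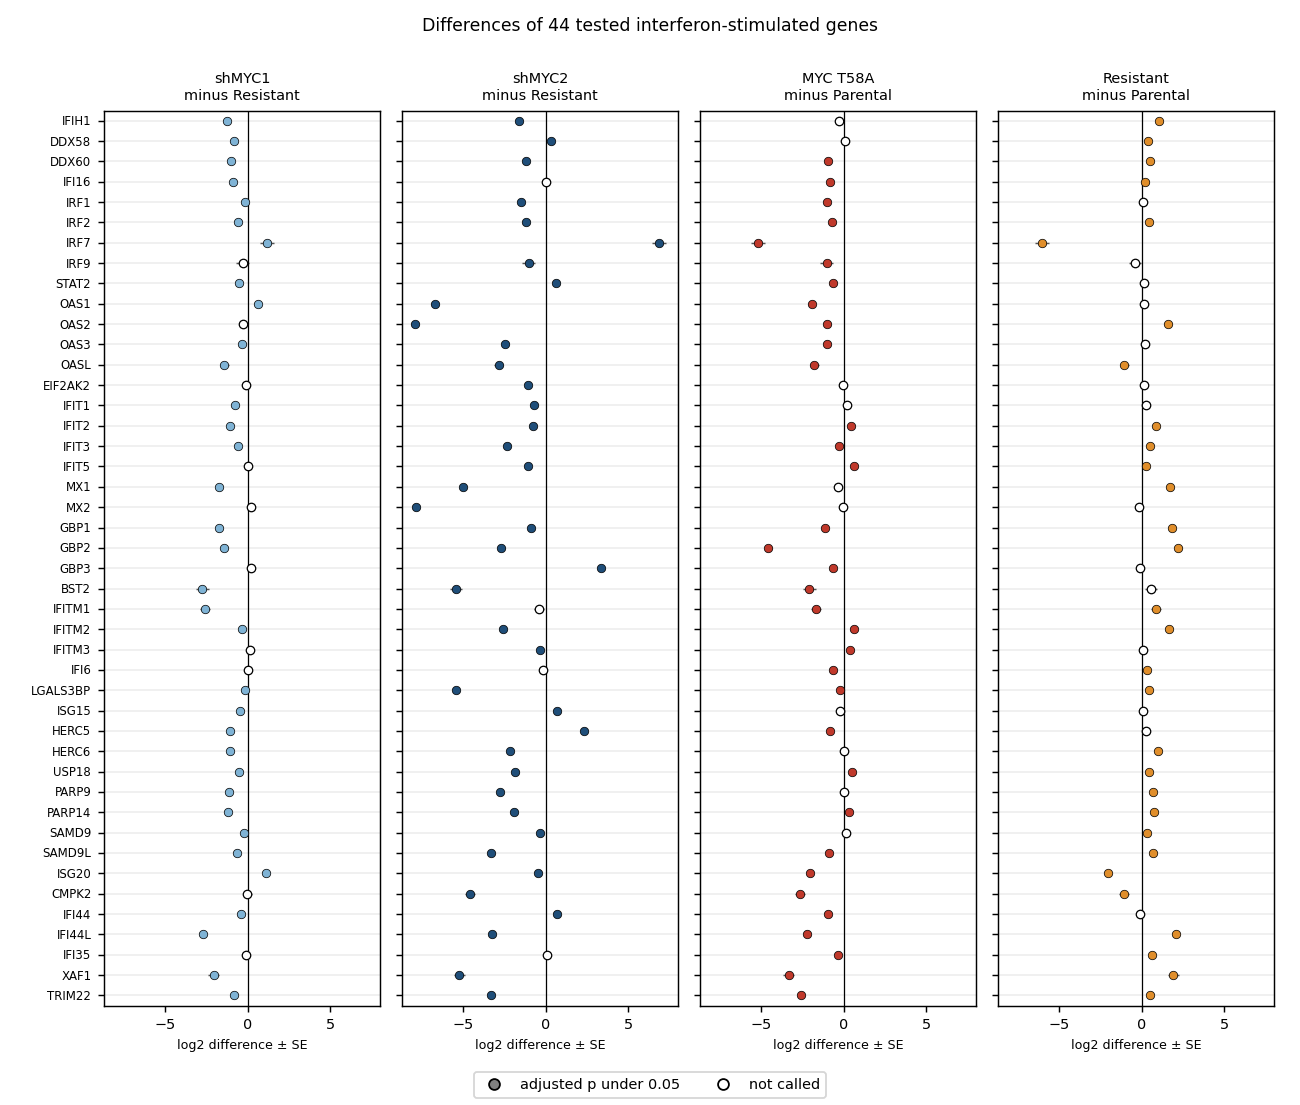
Each point is a tested member's log2 difference with its standard error in the comparison named above the panel, filled where the adjusted p is under 0.05. Points lie mostly right of 0 in Resistant minus Parental (26 higher, 4 lower) and mostly left of 0 in the other panels shown, with IRF7 the lowest point in MYC T58A and Resistant against Parental and the highest for both hairpin labels against Resistant.

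In MYC T58A cells most tested members of the list were lower than in Parental. Of the 44, 28 were called lower and 6 higher, where 33.7% of all tested genes were called lower and 30.1% higher. The median log2 difference was -0.7 over the members and -0.02 over all tested genes. Interferon-induced genes outside the list did not share this, since of 37 tested 15 were called higher and 14 lower. All 5 transcription factors, all 5 of IFI44, IFI44L, IFI35, XAF1 and TRIM22, and 4 of the 5 OAS and PKR genes were called lower. The 6 called higher were IFIT5, IFIT2, IFITM2, IFITM3, USP18 and PARP14, and the largest of these, IFIT5, stood at 0.64 on the log2 scale. The melanocyte sum (3586 to 3982 in MYC T58A, 6960 to 7281 in Parental) and the sum of LYZ and CD68 (18 to 30.8 in MYC T58A, 182 to 217 in Parental) were also lower in MYC T58A. Of the 7 melanocyte markers tested, 4 were called lower and 3 higher, and 1 of LYZ and CD68 was called lower. The part of these markers in the differences was not tested.

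IRF7 was again almost without reads, at 1, 0 and 1.76 normalized reads in MYC T58A against 64.4, 64.5 and 62.6 in Parental, which is 69.3-fold lower (95% counting interval 22.2 to 322, adjusted p = 7.95e-09). Such intervals cover counting error alone. GBP2 had 2, 1.04 and 0.881 in MYC T58A and 55, 46.1 and 56.3 in Parental and was 40.1-fold lower (95% counting interval 15.5 to 151, adjusted p = 2.55e-12), and GBP1 had 67.1, 77.9 and 75.8 in MYC T58A and 161, 162 and 155 in Parental (2.17-fold lower; log2 difference -1.11, SE 0.087, adjusted p = 4.01e-09). Both genes, which stood above Parental in Resistant, were thus under Parental here. XAF1 had no read in MYC T58A, against 13.5, 10.2 and 5.22 in Parental, which is at least 3.3-fold lower (adjusted p = 1.08e-07). IFI44L had 20, 35.3 and 22.9 in MYC T58A and 106, 127 and 127 in Parental (4.6-fold lower; log2 difference -2.2, SE 0.184, adjusted p = 9.79e-09), and CMPK2 had 11, 7.27 and 9.7 in MYC T58A and 58.1, 64.5 and 68.9 in Parental (6.84-fold lower; log2 difference -2.66, SE 0.289, adjusted p = 2.66e-07). In none of these genes did a MYC T58A library reach the lowest Parental library.

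Both BST2 and IFITM1 were low in MYC T58A. BST2 had 14, 4.15 and 7.93 in MYC T58A and 35.3, 42 and 32.3 in Parental (4.2-fold lower; log2 difference -2.08, SE 0.377, adjusted p = 0.000106), and IFITM1 had 2, 2.08 and 4.41 in MYC T58A and 12.5, 9.22 and 11.5 in Parental, which is 3.91-fold lower (95% counting interval 1.77 to 9.05, adjusted p = 0.000106). The other IFITM genes were higher, IFITM2 at 649, 646 and 695 in MYC T58A and 417, 428 and 466 in Parental (log2 difference 0.6, SE 0.0936, adjusted p = 2.05e-05) and IFITM3 at 3357, 3113 and 3629 in MYC T58A and 2612, 2480 and 2591 in Parental (log2 difference 0.39, SE 0.0817, adjusted p = 0.000476). IFIT5, which binds viral and transfer RNA, rose most among the members, with 2331, 2416 and 2103 in MYC T58A and 1445, 1506 and 1428 in Parental (1.56-fold higher; log2 difference 0.64, SE 0.0654, adjusted p = 1.19e-07). USP18, the protease that takes ISG15 off its targets, had 136, 144 and 182 in MYC T58A and 116, 108 and 96 in Parental (log2 difference 0.52, SE 0.137, adjusted p = 0.00305). IFIT3 had 340, 448 and 332 in MYC T58A and 449, 462 and 424 in Parental, which overlap, and its call (log2 difference -0.26, SE 0.0932, adjusted p = 0.0194) was lost without MYC T58A library 1 (-0.2) or 3 (-0.19) and without Parental library 1 (-0.26) or 2 (-0.24). IFIT1 was not called, with 106, 126 and 119 in MYC T58A and 89.3, 119 and 105 in Parental (log2 difference 0.17, SE 0.132, adjusted p = 0.28).

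OAS1 had 34.1, 41.5 and 42.3 in MYC T58A and 144, 166 and 151 in Parental (3.91-fold lower; log2 difference -1.95, SE 0.218, adjusted p = 4.02e-07), and IRF1 had 225, 241 and 249 in MYC T58A and 490, 499 and 450 in Parental (2.01-fold lower; log2 difference -1, SE 0.0745, adjusted p = 1.87e-09). The median differences of their neighbours were 0.2 and -0.22. For STAT2 the neighbours moved as much as the gene. It had 559, 585 and 550 in MYC T58A and 872, 892 and 871 in Parental (log2 difference -0.64, SE 0.0631, adjusted p = 8.38e-08), the median difference of its 50 neighbours was -0.74, and with that shift taken off the difference was 0.1 (adjusted p = 0.195). IFI16, a sensor of DNA, and IFI6 likewise lost their calls in MYC T58A once their neighbours' shifts of -0.71 and -0.59 were taken off (-0.1 and -0.09). IRF9 was called lower at 14, 8.31 and 6.17 in MYC T58A and 19.7, 20.5 and 18.8 in Parental (log2 difference -1.04, SE 0.38, adjusted p = 0.0231), and lost the call without MYC T58A library 2 (-0.99) or 3 (-0.8) or Parental library 1 (-1.04) or 2 (-1.02).

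The sensors IFIH1 and DDX58, PKR and ISG15 did not pass the test in MYC T58A. IFIH1 had 99.2, 92.4 and 107 in MYC T58A and 118, 131 and 114 in Parental (log2 difference -0.28, SE 0.126, adjusted p = 0.0605). DDX58 had 270, 274 and 246 in MYC T58A and 252, 254 and 231 in Parental (log2 difference 0.1, SE 0.0915, adjusted p = 0.351), EIF2AK2 had 7512, 7578 and 6448 in MYC T58A and 7274, 7531 and 7464 in Parental (log2 difference -0.05, SE 0.059, adjusted p = 0.462), and ISG15 had 81.1, 84.1 and 94.3 in MYC T58A and 101, 103 and 98.1 in Parental (log2 difference -0.22, SE 0.177, adjusted p = 0.291). MX1 stood just outside the threshold at 125, 129 and 115 in MYC T58A and 141, 167 and 176 in Parental (log2 difference -0.38, SE 0.167, adjusted p = 0.0532), with no overlap between the groups. LGALS3BP had 7919, 7973 and 8246 in MYC T58A and 9238, 9118 and 9573 in Parental (1.16-fold lower; log2 difference -0.21, SE 0.0464, adjusted p = 0.000693).

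shMYC1-labelled cells had lower levels of most members than Resistant. Of 44 members, 31 were called lower and 3 higher, where 30.1% of all tested genes were called lower and 27% higher. The median log2 difference was -0.57 over the members and -0.03 over all tested genes. All 4 sensors, all 4 of ISG15, HERC5, HERC6 and USP18, and all 4 of the PARP and SAMD9 group were called lower. The 3 called higher were ISG20, OAS1 and IRF7. Without Resistant library 2 or 3 only 1 was called higher. All 7 fibroblast markers were called lower with them (sum 404 to 416 under the shMYC1 label, 3959 to 4169 in Resistant), and the melanocyte, immune and endothelial sums were higher. Single markers within those sums went both ways. Of the 7 melanocyte markers tested, 3 were called higher and 1 lower. Of 2 immune and 2 endothelial markers tested, 1 of each list was called higher and 1 lower. The part of these markers in the differences was not tested.

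The largest decrease was that of BST2, which had 8.56, 8.82 and 4.78 in shMYC1-labelled cells and 44.8, 56.4 and 61 in Resistant (7.32-fold lower; log2 difference -2.74, SE 0.377, adjusted p = 6.03e-06). IFI44L had 77.1, 70.6 and 85.1 in shMYC1-labelled cells and 528, 494 and 502 in Resistant (6.55-fold lower; log2 difference -2.7, SE 0.184, adjusted p = 7.26e-10). IFITM1 had 1.9, 3.53 and 2.87 in shMYC1-labelled cells and 19.2, 26.3 and 18.2 in Resistant, which is 7.68-fold lower (95% counting interval 3.79 to 17.5, adjusted p = 1.19e-06). In each of these genes the highest shMYC1-labelled library was far under the lowest Resistant one. GBP1 had 184, 154 and 170 in shMYC1-labelled cells and 559, 565 and 555 in Resistant (3.31-fold lower; log2 difference -1.72, SE 0.087, adjusted p = 1.15e-11), and GBP2 had 107, 68.8 and 104 in shMYC1-labelled cells and 255, 243 and 238 in Resistant (2.62-fold lower; log2 difference -1.41, SE 0.208, adjusted p = 1.39e-05). MX1 had 155, 131 and 190 in shMYC1-labelled cells and 546, 484 and 557 in Resistant (3.34-fold lower; log2 difference -1.75, SE 0.167, adjusted p = 6.45e-08). IFIH1 had 121, 88.2 and 117 in shMYC1-labelled cells and 254, 277 and 237 in Resistant (2.36-fold lower; log2 difference -1.24, SE 0.126, adjusted p = 1.49e-07), with library 2, the one that stood furthest from its group, lowest. DDX58 had 156, 186 and 185 in shMYC1-labelled cells and 319, 309 and 312 in Resistant (1.78-fold lower; log2 difference -0.84, SE 0.0915, adjusted p = 3.81e-07).

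The IFIT genes fell except IFIT5. IFIT1 had 75.2, 66.2 and 75.5 in shMYC1-labelled cells and 143, 117 and 117 in Resistant (log2 difference -0.79, SE 0.132, adjusted p = 5.55e-05), IFIT3 had 394, 438 and 412 in shMYC1-labelled cells and 619, 635 and 645 in Resistant (log2 difference -0.61, SE 0.0932, adjusted p = 2.03e-05), while IFIT5 was at 1732 ± 142 in shMYC1-labelled cells and 1719 ± 82 in Resistant (SD, n = 3 each; log2 difference 0.01, SE 0.0654, adjusted p = 0.927). STAT2 had 641, 745 and 618 in shMYC1-labelled cells and 924, 947 and 998 in Resistant (1.43-fold lower; log2 difference -0.52, SE 0.0631, adjusted p = 1.35e-06). IRF1 differed little, at 473, 440 and 439 in shMYC1-labelled cells and 506, 520 and 509 in Resistant (log2 difference -0.18, SE 0.0745, adjusted p = 0.0439), but its call was lost without any of 5 libraries in turn, the 3 of Resistant and libraries 2 and 3 labelled shMYC1 (-0.16 to -0.19). IRF9 was not called, with 7.61, 17.6 and 11.5 in shMYC1-labelled cells and 18.1, 20.7 and 8.19 in Resistant (log2 difference -0.31, SE 0.38, adjusted p = 0.51). ISG15 had 51.4, 88.2 and 88.9 in shMYC1-labelled cells and 89.6, 111 and 114 in Resistant (log2 difference -0.49, SE 0.177, adjusted p = 0.0245), which rests on library 1: without it the difference was -0.23 and not called. The ISG15 call was also lost without Resistant library 2 (-0.45) or 3 (-0.43) and under quantile normalization (-0.29). HERC5, the ligase that attaches ISG15, had 34.2, 26.5 and 33.5 in shMYC1-labelled cells and 76.8, 65.8 and 59.2 in Resistant (2.14-fold lower; log2 difference -1.08, SE 0.147, adjusted p = 5.65e-06).

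ISG20 was the clearest exception, with 280, 325 and 259 in shMYC1-labelled cells and 120, 129 and 155 in Resistant (2.14-fold higher; log2 difference 1.1, SE 0.124, adjusted p = 5.85e-07). OAS1 had 256, 283 and 242 in shMYC1-labelled cells and 174, 170 and 166 in Resistant with no overlap, and its call (log2 difference 0.61, SE 0.218, adjusted p = 0.0236) was lost without Resistant library 2 (0.61) or 3 (0.59) or library 2 labelled shMYC1 (0.55), and with a pseudocount of 0.1 (0.61, adjusted p = 0.491). OAS3 on the same stretch of chromosome was called lower, at 3426, 2099 and 3129 in shMYC1-labelled cells and 3516, 3691 and 3616 in Resistant (log2 difference -0.35, SE 0.129, adjusted p = 0.0304), but lost the call without Resistant library 2 (-0.34) or 3 (-0.35). IRF7 had 2.85, 0 and 1.91 in shMYC1-labelled cells and none in Resistant. Both groups were at or under 3 reads a library, so no fold is given, and its call (log2 difference 1.16, SE 0.43, adjusted p = 0.028) was lost without any 1 of 5 libraries (0.77 to 1.16) and with a pseudocount of 10 (0.2). EIF2AK2 had 7560, 7219 and 7853 in shMYC1-labelled cells and 7806, 8324 and 7839 in Resistant and was not called (log2 difference -0.08, SE 0.059, adjusted p = 0.244). IFITM2 had 1011, 1238 and 928 in shMYC1-labelled cells and 1461, 1277 and 1344 in Resistant (log2 difference -0.37, SE 0.0936, adjusted p = 0.00255), IFITM3 had 2884, 3477 and 2683 in shMYC1-labelled cells and 2783, 2502 and 2859 in Resistant (log2 difference 0.14, SE 0.0817, adjusted p = 0.142), while LGALS3BP had 11400, 10840 and 10571 in shMYC1-labelled cells and 12444, 11776 and 13031 in Resistant (log2 difference -0.18, SE 0.0464, adjusted p = 0.0026). XAF1 was 4.6-fold lower in shMYC1-labelled cells, at 7.61, 7.94 and 8.6 in shMYC1-labelled cells against 37.4, 29.1 and 44.6 in Resistant (log2 difference -2.05, SE 0.336, adjusted p = 4.43e-05).

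shMYC2-labelled cells differed from Resistant in nearly every member, and the members split. Of 44, 33 were called lower and 7 higher, where 43% of all tested genes were called lower and 36.2% higher. The median log2 difference was -1.34 over the members and -0.08 over all tested genes. Scaling to a common library total moved the median of all genes to -0.22 and that of the members to -1.49, and quantile normalization moved them to 0.15 and -1.11. Of the genes called, 45.7% were higher as reported and 56% under quantile normalization. All 5 OAS and PKR genes, all 4 IFIT genes and all 4 of the PARP and SAMD9 group were called lower. Under quantile normalization IFIT1 (0.12) and IFIT2 (-0.05) were not called, and with the shift of neighbouring genes taken off IFIT1 (-0.23) and SAMD9 (-0.03) were not. The 7 called higher were IRF7, GBP3, HERC5, IFI44, ISG15, STAT2 and DDX58. The melanocyte sum (198 to 247 under the shMYC2 label, 3568 to 4017 in Resistant) and the fibroblast sum (456 to 481 under that label, 3959 to 4169 in Resistant) were also lower. Of the 7 melanocyte markers tested, 5 were called lower and 1 higher, and 5 of 7 fibroblast markers were called lower. The part of these markers in the differences was not tested.

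Several effectors were all but without reads. OAS2 had 0, 1.04 and 1.02 normalized reads in shMYC2-labelled cells, against 433, 360 and 393 in Resistant, and was 574-fold lower (95% counting interval 156 to 4670, adjusted p = 4.2e-16). OAS1 had 1.08, 1.04 and 0 in shMYC2-labelled cells and 174, 170 and 166 in Resistant, which is 241-fold lower (95% counting interval 67 to 2010, adjusted p = 3.42e-15). MX2 had 7.54, 5.21 and 9.21 in shMYC2-labelled cells and 1995, 1879 and 1866 in Resistant (261-fold lower; log2 difference -7.88, SE 0.12, adjusted p = 4.16e-18). MX2 was the only 1 of these 3 that stood above 1000 normalized reads in every other group. BST2 had 0, 1.04 and 0 in shMYC2-labelled cells and 44.8, 56.4 and 61 in Resistant, which is 156-fold lower (95% counting interval 27.7 to 6210, adjusted p = 2.21e-10). CMPK2 had 0, 1.04 and 0 in shMYC2-labelled cells and 30.9, 29.1 and 28.2 in Resistant, which is 84.7-fold lower (95% counting interval 14.7 to 3360, adjusted p = 5.4e-11). XAF1 had no read, against 37.4, 29.1 and 44.6 in Resistant, and was at least 11.8-fold lower (adjusted p = 7.26e-11). LGALS3BP fell from its place at the top of the list, with 283, 281 and 299 in shMYC2-labelled cells and 12444, 11776 and 13031 in Resistant (43.2-fold lower; log2 difference -5.43, SE 0.0464, adjusted p = 5.03e-23). MX1 had 19.4, 11.5 and 17.4 in shMYC2-labelled cells and 546, 484 and 557 in Resistant (32.9-fold lower; log2 difference -4.98, SE 0.167, adjusted p = 5.3e-15). The median difference of neighbouring genes was between -0.56 and 0.55 for these 8 genes, far less than their own differences.

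Others rose in the same libraries. IRF7 had 114, 108 and 124 in shMYC2-labelled cells and no read in Resistant, which is at least 39.6-fold higher (adjusted p = 4.95e-11). GBP3 had 534, 514 and 537 in shMYC2-labelled cells and 66.2, 37.6 and 52.8 in Resistant (10.1-fold higher; log2 difference 3.35, SE 0.182, adjusted p = 6.4e-12), and HERC5 had 310, 340 and 360 in shMYC2-labelled cells and 76.8, 65.8 and 59.2 in Resistant (5.01-fold higher; log2 difference 2.31, SE 0.147, adjusted p = 6.17e-11). All 3 stood above every one of the other 12 libraries. STAT2 had 1457, 1414 and 1499 in shMYC2-labelled cells and 924, 947 and 998 in Resistant (1.52-fold higher; log2 difference 0.61, SE 0.0631, adjusted p = 6.58e-08). ISG15 had 155, 197 and 155 in shMYC2-labelled cells and 89.6, 111 and 114 in Resistant (1.61-fold higher; log2 difference 0.68, SE 0.177, adjusted p = 0.00179), and DDX58 had 347, 417 and 409 in shMYC2-labelled cells and 319, 309 and 312 in Resistant (log2 difference 0.31, SE 0.0915, adjusted p = 0.00461). The DDX58 call was lost when values were scaled to a common library total (0.17). IFI44 had 3183, 3049 and 3336 in shMYC2-labelled cells and 2014, 1953 and 1901 in Resistant (1.63-fold higher; log2 difference 0.7, SE 0.062, adjusted p = 6.47e-09), while its neighbour IFI44L had 40.9, 57.4 and 62.4 in shMYC2-labelled cells and 528, 494 and 502 in Resistant (9.49-fold lower; log2 difference -3.24, SE 0.184, adjusted p = 1.22e-11). The pair thus moved in opposite directions in this comparison, each with no overlap between the groups.

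The remaining members of this comparison were mostly lower by less. IFIH1 had 87.2, 76.1 and 85.9 in shMYC2-labelled cells and 254, 277 and 237 in Resistant (3.08-fold lower; log2 difference -1.61, SE 0.126, adjusted p = 1.26e-09). IRF1 had 168, 196 and 188 in shMYC2-labelled cells and 506, 520 and 509 in Resistant (2.78-fold lower; log2 difference -1.47, SE 0.0745, adjusted p = 2.24e-12). EIF2AK2 had 3799, 3523 and 3930 in shMYC2-labelled cells and 7806, 8324 and 7839 in Resistant (2.13-fold lower; log2 difference -1.09, SE 0.059, adjusted p = 5.82e-12). PKR was not called in Resistant, MYC T58A or shMYC1-labelled cells in the comparisons above. IFIT3 had 126, 121 and 118 in shMYC2-labelled cells and 619, 635 and 645 in Resistant (5.21-fold lower; log2 difference -2.37, SE 0.0932, adjusted p = 5.71e-14), and IFIT1 had 81.8, 74.1 and 74.7 in shMYC2-labelled cells and 143, 117 and 117 in Resistant (log2 difference -0.7, SE 0.132, adjusted p = 9.72e-05), with neighbours at -0.47. GBP1 had 307, 286 and 296 in shMYC2-labelled cells and 559, 565 and 555 in Resistant (1.89-fold lower; log2 difference -0.92, SE 0.087, adjusted p = 1.85e-08), and GBP2 had 40.9, 38.6 and 32.7 in shMYC2-labelled cells and 255, 243 and 238 in Resistant (6.56-fold lower; log2 difference -2.69, SE 0.208, adjusted p = 1.06e-09). The 3 GBP genes lie on one stretch of chromosome 1 whose neighbouring genes were higher by a median of 0.73 to 0.77.

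Among the IFITM genes, IFITM2 had 240, 241 and 204 in shMYC2-labelled cells and 1461, 1277 and 1344 in Resistant (5.96-fold lower; log2 difference -2.57, SE 0.0936, adjusted p = 1.86e-14). IFITM3 had 2138, 2291 and 2057 in shMYC2-labelled cells and 2783, 2502 and 2859 in Resistant (log2 difference -0.33, SE 0.0817, adjusted p = 0.0015), while IFITM1 had 14, 13.6 and 19.4 in shMYC2-labelled cells and 19.2, 26.3 and 18.2 in Resistant, which overlap (log2 difference -0.42, SE 0.308, adjusted p = 0.224). IRF9 had 5.38, 5.21 and 10.2 in shMYC2-labelled cells and 18.1, 20.7 and 8.19 in Resistant, which overlap. Its call (log2 difference -1.03, SE 0.38, adjusted p = 0.0192) was lost without Resistant library 1 (-0.89) or 2 (-0.8) and without library 1 (-0.9) or 2 (-0.88) labelled shMYC2, and the difference was 0.37 and not called under quantile normalization. ISG20 was lower at 95.8, 108 and 84.9 in shMYC2-labelled cells and 120, 129 and 155 in Resistant (log2 difference -0.47, SE 0.124, adjusted p = 0.00202) but turned to 0.27 (adjusted p = 0.0486) under quantile normalization.

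**Figure D3:**
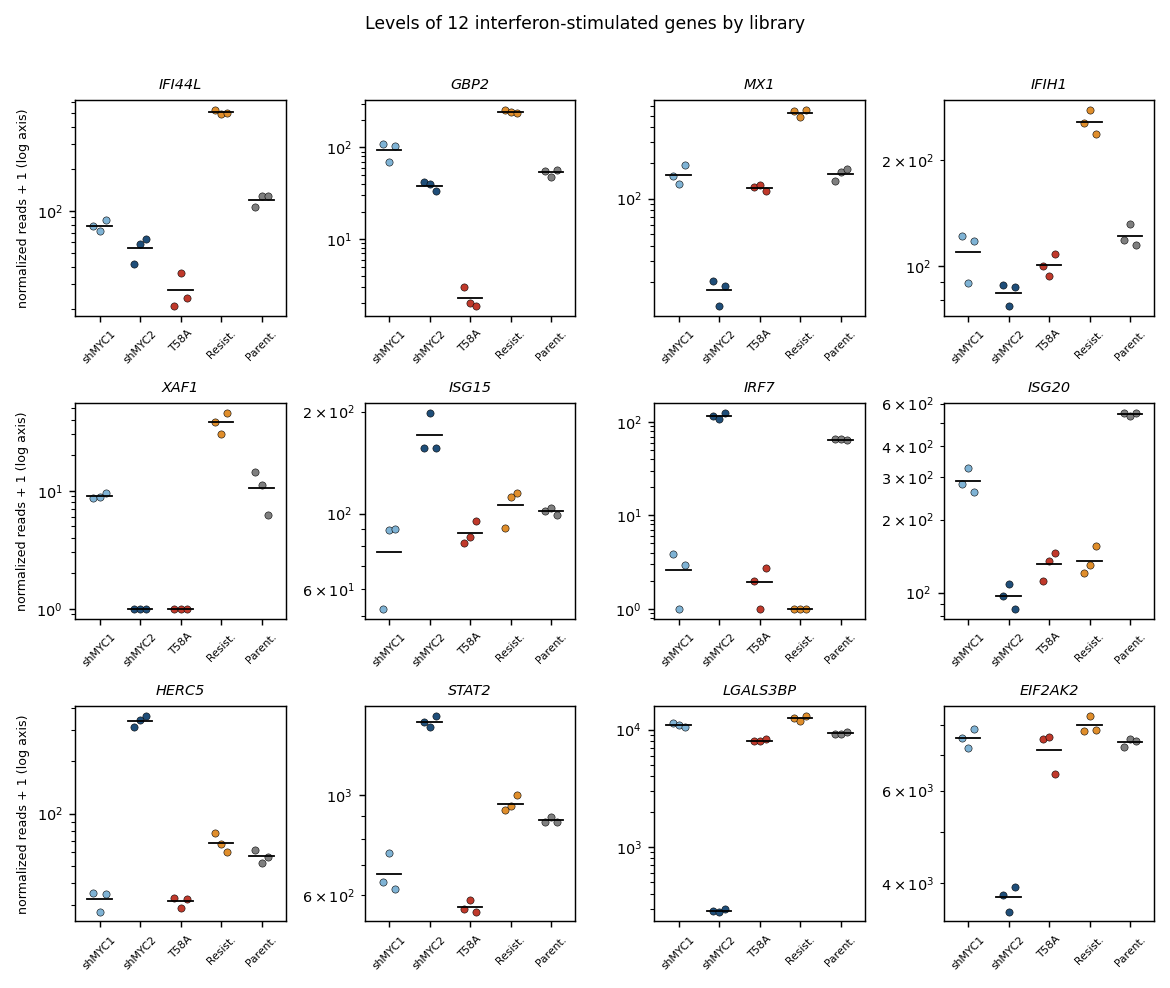
Each panel gives 1 member, with points for the 3 libraries of each group and a line at their mean, on a log axis of normalized reads + 1. IFI44L, GBP2, MX1 and IFIH1 are highest in Resistant, IRF7, HERC5, STAT2 and ISG15 in shMYC2-labelled cells, and ISG20 in Parental, while LGALS3BP and EIF2AK2 drop in shMYC2-labelled cells.

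MYC T58A and Resistant cells differ in the cells they come from as well as in MYC, and most members were lower in MYC T58A. Of 44 members, 35 were called lower in MYC T58A than in Resistant and 2 higher, where 36% of all tested genes were called lower and 31.8% higher. The median log2 difference was -0.96 over the members and -0.03 over all tested genes. Of the fibroblast markers 5 of 7 were called lower and 2 higher in the same comparison (sum 525 to 578 in MYC T58A, 3959 to 4169 in Resistant). LYZ and CD68 were both called lower (sum 18 to 30.8 in MYC T58A, 69.4 to 72.8 in Resistant). The part of these markers in the differences was not tested. GBP2 had 2, 1.04 and 0.881 normalized reads in MYC T58A and 255, 243 and 238 in Resistant, which is 188-fold lower (95% counting interval 73.7 to 697, adjusted p = 6.54e-15). XAF1, with no read in MYC T58A, was at least 12.7-fold lower (adjusted p = 1.79e-10), and IFI44L was 19.5-fold lower at 26.1 ± 8.12 in MYC T58A against 508 ± 17.8 in Resistant (SD, n = 3 each; log2 difference -4.27, SE 0.184, adjusted p = 7.45e-13). The 2 called higher in MYC T58A were IFIT5 (log2 difference 0.41, SE 0.0654, adjusted p = 2.46e-05) and IFITM3 (log2 difference 0.31, SE 0.0817, adjusted p = 0.00296), 1.33-fold higher and 1.24-fold higher. This comparison shares its MYC T58A libraries with the one against Parental and its Resistant libraries with the others, so the values are not independent of those above.

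Most other effectors stood lower in MYC T58A than in Resistant as well. GBP1 was 7.61-fold lower (log2 difference -2.91, SE 0.087, adjusted p = 4.33e-15), BST2 6.21-fold lower (log2 difference -2.63, SE 0.377, adjusted p = 6.8e-06), MX1 4.3-fold lower (log2 difference -2.09, SE 0.167, adjusted p = 3.4e-09) and OAS1 4.32-fold lower (log2 difference -2.09, SE 0.218, adjusted p = 1.26e-07). IFITM1 was 7.51-fold lower (95% counting interval 3.63 to 16.7, adjusted p = 7.42e-07), IFITM2 2.05-fold lower (log2 difference -1.03, SE 0.0936, adjusted p = 1.97e-08) and LGALS3BP 1.54-fold lower (log2 difference -0.62, SE 0.0464, adjusted p = 1.3e-09). IFIH1 was 2.57-fold lower (log2 difference -1.36, SE 0.126, adjusted p = 2.88e-08), IRF1 2.14-fold lower (log2 difference -1.1, SE 0.0745, adjusted p = 3.77e-10) and IFIT3 1.7-fold lower (log2 difference -0.77, SE 0.0932, adjusted p = 8.01e-07). Of the members with small differences, EIF2AK2 was at -0.16 (adjusted p = 0.0252), a call lost without MYC T58A library 3 (-0.08) or Resistant library 2 (-0.13). STAT2 was at -0.76 (adjusted p = 6.21e-09) where its neighbours were at -0.74, and was not called with that shift taken off (-0.02). DDX58 was at -0.25 (adjusted p = 0.0217), a call lost under quantile normalization (-0.06), with the shift of neighbouring genes taken off (-0.12), and without MYC T58A library 3 (-0.2) or Resistant library 1 (-0.24). The differences of ISG15 (-0.27, adjusted p = 0.189), IFIT1 (-0.1, adjusted p = 0.517), IRF9 (-0.64, adjusted p = 0.144) and IRF7 (0.82, adjusted p = 0.0996) did not pass the test.

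Close relatives within the list often had unlike levels. In shMYC2-labelled cells, MX1 and MX2 both had the lowest mean of the 5 groups, whereas of the pair MX1 alone was called higher in Resistant than in Parental. Of the OAS genes, OAS3 kept the most reads, at 2885 ± 696 normalized reads in shMYC1-labelled cells, 657 ± 52.5 in shMYC2-labelled cells, 1533 ± 14.2 in MYC T58A, 3608 ± 87.4 in Resistant and 3116 ± 60.2 in Parental (SD, n = 3 each). OAS1 and OAS2, its neighbours, were near 0 in shMYC2-labelled cells where OAS3 was not. HERC5 and HERC6, ligases of one family, moved apart in shMYC2-labelled cells. HERC6 had 95.8, 115 and 113 there and 538, 476 and 454 in Resistant (4.54-fold lower; log2 difference -2.17, SE 0.111, adjusted p = 2.39e-12), against the rise of HERC5. GBP3 was the GBP gene that did not share the Resistant increase, with 66.2, 37.6 and 52.8 in Resistant and 49.8, 57.4 and 59.5 in Parental (log2 difference -0.12, SE 0.182, adjusted p = 0.609). SAMD9 and SAMD9L, neighbouring genes that restrain growth and viruses, both fell in shMYC2-labelled cells. SAMD9L had 71.1, 72 and 70.6 in shMYC2-labelled cells and 730, 739 and 721 in Resistant (10.3-fold lower; log2 difference -3.34, SE 0.0709, adjusted p = 8.06e-18), while SAMD9 had 1840, 1817 and 1954 in shMYC2-labelled cells and 2429, 2430 and 2148 in Resistant (1.25-fold lower; log2 difference -0.32, SE 0.0615, adjusted p = 0.000122).

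**Figure D4:**
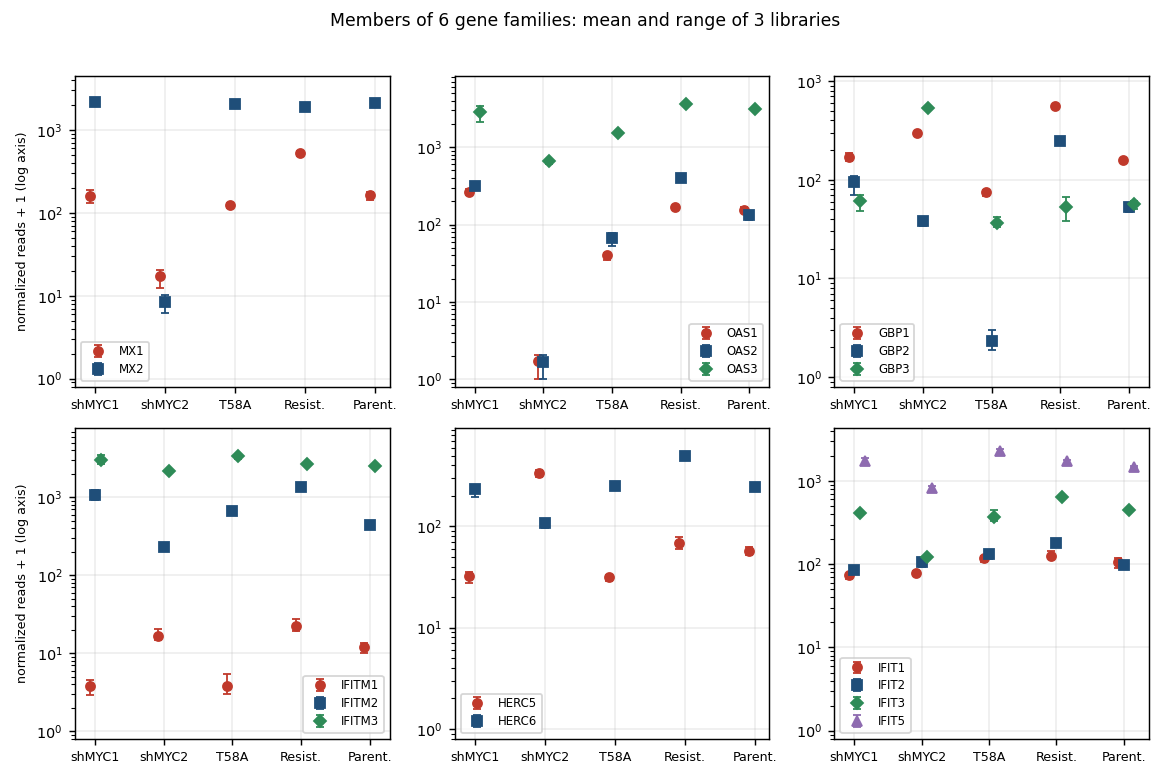
Each panel gives the genes of 1 family, with the mean of 3 libraries and the range between the lowest and the highest on a log axis of normalized reads + 1. MX2, OAS1 and OAS2 drop below 10 in shMYC2-labelled cells while OAS3 stays at 606 or more, GBP2 drops in MYC T58A, and HERC5 and HERC6 cross between Resistant and shMYC2-labelled cells.

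PARP9 and PARP14, which belong to the ADP-ribosyltransferase family, were each called higher in Resistant than in Parental (0.66 and 0.72), lower in shMYC1-labelled cells than in Resistant (-1.12 and -1.17) and lower in shMYC2-labelled cells (-2.77 and -1.9), all as log2 differences. TRIM22, an antiviral ubiquitin ligase, had 15, 13.5 and 14.1 in MYC T58A and 105, 97.3 and 68.9 in Parental (6.36-fold lower; log2 difference -2.56, SE 0.18, adjusted p = 9.02e-10). IFI35 had 503, 483 and 521 in Resistant and 307, 369 and 309 in Parental (log2 difference 0.62, SE 0.0743, adjusted p = 1.6e-06) and was among the 4 members not called between shMYC2-labelled cells and Resistant (log2 difference 0.07, SE 0.0743, adjusted p = 0.404). The other 3 were IFI16, IFI6 and IFITM1. DDX60, a helicase that aids RIG-I, was at 275 ± 34.4 in shMYC1-labelled cells, 243 ± 36.4 in shMYC2-labelled cells, 198 ± 23.7 in MYC T58A, 558 ± 6.81 in Resistant and 391 ± 16 in Parental (SD, n = 3 each). IRF2, a factor that competes with IRF1 for its sites, was at 792 ± 60.6 in shMYC1-labelled cells, 523 ± 12.8 in shMYC2-labelled cells, 543 ± 5.63 in MYC T58A, 1213 ± 69.8 in Resistant and 888 ± 27.7 in Parental (SD, n = 3 each), called higher in Resistant than in Parental and lower in the other 4 comparisons. IFI27 stayed under the filter, with the highest library at 10.9 normalized reads, and was not tested.

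Per kilobase of exon (GENCODE lengths), the members ranged widely within the Resistant group, LGALS3BP first at 3460 normalized reads per kilobase and IFITM3 next at 2010. IFI16 stood at 1090, IFI44 at 960 and IFITM2 at 882. At the low end XAF1 had 5.6 and IRF9 4.13 per kilobase in Resistant, and IRF7 had none. In shMYC2-labelled cells, IFITM3 led at 1600 per kilobase, followed by IFI44 at 1560 and IFI16 at 1090, and LGALS3BP stood at 80.2. These levels rank genes only roughly, since the transcript forms in use were not measured.

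A further list of 88 genes held interferon ligands, receptors, kinases and STATs, inhibitors, and sensors and adaptors, together with 45 further interferon-induced genes. Of the 88, 73 were in the table and 69 were tested. The 69 include 37 of the further interferon-induced genes, which are products of the pathway and are described again below. In Resistant against Parental 40 of the 69 were called higher and 8 lower (27.2% and 24.4% of all tested genes). In MYC T58A against Parental 28 were higher and 25 lower (30.1% and 33.7%). In shMYC1-labelled cells against Resistant 10 were higher and 42 lower (27% and 30.1%). In shMYC2-labelled cells against Resistant the counts were 17 and 43 (36.2% and 43%), and in MYC T58A against Resistant 16 and 45 (31.8% and 36%). These counts pool activators, inhibitors and induced genes. Of 10 interferon ligands, 1 was in the table, IFNE, whose group means were 10 to 16.7 normalized reads. IFNB1 and the other 8 are not analysed here.

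Of 6 receptor genes, 5 were called higher in Resistant than in Parental, where 27.2% of all tested genes were. All 6 were called lower in shMYC1-labelled cells than in Resistant, where 30.1% of all tested genes were. In shMYC2-labelled cells against Resistant, 4 were called higher and 2 lower (36.2% and 43% of all tested genes). IFNAR1, a chain of the receptor for type I interferons, had 2601, 2640 and 2472 in Resistant and 2133, 2249 and 2206 in Parental (log2 difference 0.23, SE 0.0579, adjusted p = 0.00306), and 2168, 2018 and 2304 in shMYC1-labelled cells (log2 difference -0.25, SE 0.0579, adjusted p = 0.00122). IFNAR2, its partner chain, had 589, 612 and 664 in Resistant and 355, 383 and 331 in Parental (log2 difference 0.8, SE 0.0918, adjusted p = 8.49e-07). It had 174, 192 and 175 in MYC T58A (against Parental, log2 difference -0.98, SE 0.0918, adjusted p = 4.34e-08) and 350, 311 and 364 in shMYC1-labelled cells (against Resistant, log2 difference -0.86, SE 0.0918, adjusted p = 2.62e-07). The call of IFNGR2 in shMYC1-labelled cells (log2 difference -0.15, SE 0.0507, adjusted p = 0.0171) was lost without Resistant library 3 (-0.12) or without library 1 or 3 labelled shMYC1 (-0.13 each). IFNAR1 was higher at 5116, 4799 and 5086 in shMYC2-labelled cells (against Resistant, log2 difference 0.96, SE 0.0579, adjusted p = 2.93e-11), while IFNLR1, a chain of the interferon lambda receptor, had 2.15, 1.04 and 2.05 in shMYC2-labelled cells against 252, 238 and 271 in Resistant and was 145-fold lower (95% counting interval 62.1 to 449, adjusted p = 8.28e-17). IFNAR2 was at -0.25 there (adjusted p = 0.0178), a call lost without Resistant library 3 (-0.21) or library 3 labelled shMYC2 (-0.16).

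Among the receptor kinases, JAK1, which is bound to receptors of every interferon type, had 3899, 4033 and 3801 in Resistant and 2830, 2803 and 2763 in Parental (log2 difference 0.48, SE 0.0459, adjusted p = 8.3e-08), and 2216, 2293 and 2062 in MYC T58A (against Parental, log2 difference -0.35, SE 0.0459, adjusted p = 2.35e-06). With the shift of neighbouring genes taken off, JAK1 in MYC T58A turned to 0.13 (adjusted p = 0.018). In shMYC1-labelled and shMYC2-labelled cells, JAK1 was at -0.34 and -0.51 on the log2 scale against Resistant, both called lower.

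Upstream of the ligands lie the sensors and adaptors that start interferon production. MB21D1, the DNA sensor cGAS, had 1352, 1364 and 1307 normalized reads in shMYC2-labelled cells, where group means elsewhere were 1.37 to 5.63, and was 458-fold higher (95% counting interval 243 to 1010, adjusted p = 7.64e-12) than in Resistant. TMEM173, the adaptor STING through which cGAS signals, had 1024, 1113 and 975 in shMYC2-labelled cells and 365, 334 and 384 in Resistant (2.87-fold higher; log2 difference 1.52, SE 0.0688, adjusted p = 4.41e-13), and Resistant was below Parental, which had 758, 716 and 766 in Parental libraries (log2 difference -1.05, SE 0.0688, adjusted p = 6.3e-10). Both DNA-side genes were thus called higher under the shMYC2 label, where IFIH1 was called lower and DDX58 higher. MAVS, the adaptor of RIG-I and MDA5, had 2027, 2044 and 1886 there and 2431, 2338 and 2441 in Resistant, a small difference (log2 difference -0.28, SE 0.115, adjusted p = 0.0405) whose call was lost without any 1 of the 6 libraries (-0.24 to -0.3). MAVS also had 1401, 1456 and 1404 in MYC T58A against 2609, 2414 and 2515 in Parental (1.77-fold lower; log2 difference -0.82, SE 0.115, adjusted p = 1.94e-05). MB21D1 also differed between MYC T58A and Parental (6.01, 2.08 and 8.81 in MYC T58A against 2.08, 2.05 and 0 in Parental), at 1.5 on the log2 scale (adjusted p = 0.00837), a call lost without MYC T58A library 3 (1.14) or Parental library 3 (0.96). TLR4 and MYD88, a receptor for bacterial products and its adaptor, were far lower under the shMYC2 label. TLR4 had 5.38, 5.21 and 8.18 in shMYC2-labelled cells against 887, 876 and 889 in Resistant (141-fold lower; log2 difference -6.95, SE 0.107, adjusted p = 4.68e-19), and MYD88 had 39.8, 26.1 and 27.6 in shMYC2-labelled cells against 703, 736 and 636 in Resistant (22.2-fold lower; log2 difference -4.45, SE 0.112, adjusted p = 1.32e-16).

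DHX58, the RIG-I relative LGP2, followed the order of most members, with 16, 14.5 and 18.5 in MYC T58A, 154, 140 and 150 in Resistant and 67.5, 84 and 65.7 in Parental (Resistant against Parental, log2 difference 1.03, SE 0.145, adjusted p = 1.03e-05; MYC T58A against Parental, log2 difference -2.08, SE 0.145, adjusted p = 8.6e-10). IKBKE, a kinase that activates IRF3 and IRF7, had 319, 298 and 249 in shMYC1-labelled cells, 1300, 1084 and 1331 in Resistant and 504, 494 and 510 in Parental (Resistant against Parental, log2 difference 1.29, SE 0.0887, adjusted p = 1.13e-09; shMYC1 label against Resistant, log2 difference -2.1, SE 0.0887, adjusted p = 1.01e-12). AIM2, an inflammasome sensor of DNA, had 7.01, 4.15 and 4.41 in MYC T58A, against 296, 259 and 222 in Resistant and 129, 150 and 131 in Parental, which against Parental is 26.3-fold lower. All 3 had their highest group mean in Resistant, with every library there above those of the other groups named.

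**Figure D5:**
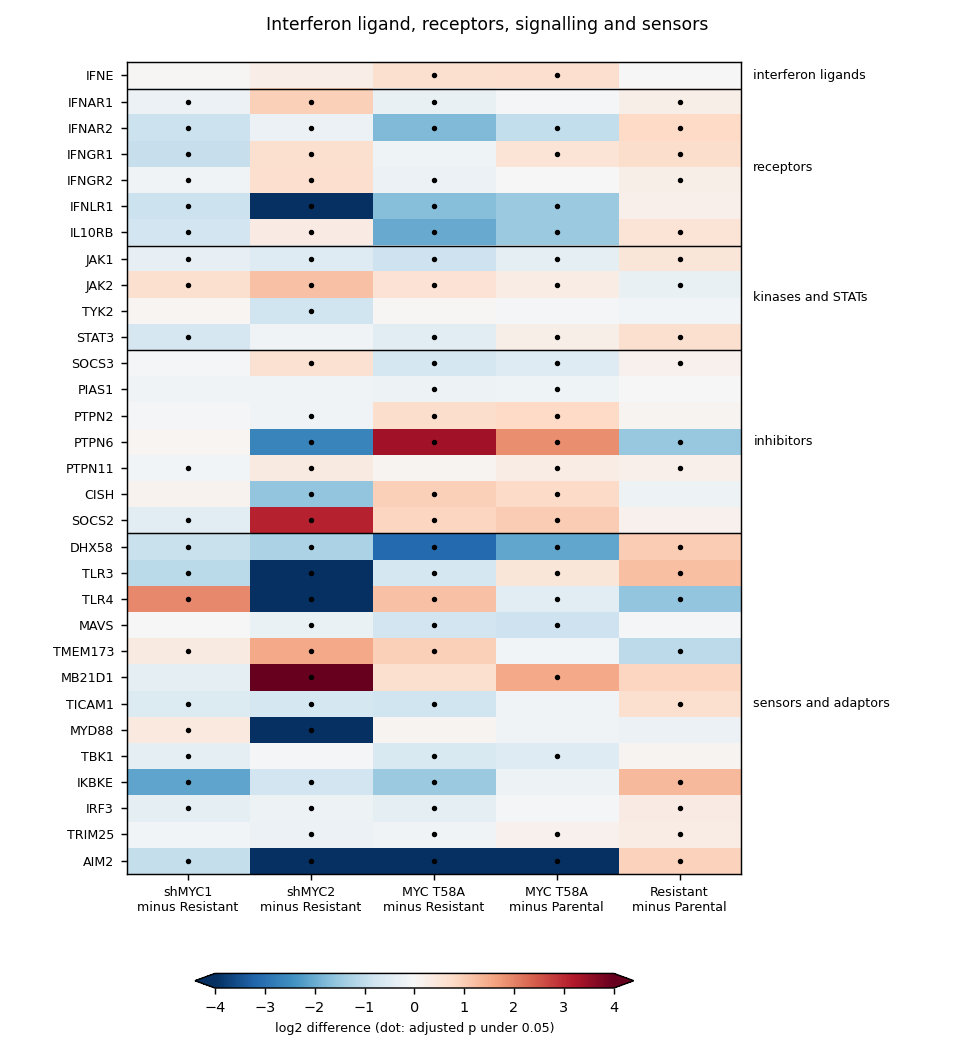
Rows are tested pathway genes grouped by role and columns are comparisons, coloured by the log2 difference with colours ending at 4 in either direction, with a dot where the adjusted p is under 0.05. The receptor rows are red in Resistant minus Parental and blue for the shMYC1 label minus Resistant, and in the shMYC2 column MB21D1 is the darkest red while IFNLR1, TLR3, TLR4, MYD88 and AIM2 are the darkest blue.

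The 37 further interferon-induced genes tested are not members and are already counted among the 69 above. Of them, 23 were called higher in Resistant than in Parental and 4 lower, where the shares over all tested genes were 27.2% and 24.4%. In shMYC1-labelled cells against Resistant 6 were higher and 24 lower (27% and 30.1% of all tested genes), in shMYC2-labelled cells against Resistant 7 and 25 (36.2% and 43%), and in MYC T58A against Resistant 8 and 26 (31.8% and 36%). In MYC T58A against Parental 15 were higher and 14 lower, near the shares of 30.1% and 33.7% over all tested genes. CCL5, a chemokine that draws T cells, was scarce but highest in Resistant, with 3.81, 3.53 and 3.82 in shMYC1-labelled cells, 30.9, 22.6 and 31.9 in Resistant and 4.15, 8.19 and 4.17 in Parental (Resistant against Parental, 5.17-fold higher; log2 difference 2.22, SE 0.425, adjusted p = 0.000259). CXCL11, an interferon-induced ligand of CXCR3, had 25.6, 18.8 and 27.3 in Resistant and 9.34, 8.19 and 5.22 in Parental (3.15-fold higher; log2 difference 1.55, SE 0.401, adjusted p = 0.00333). With a pseudocount of 0.1 neither CCL5 (2.41, adjusted p = 0.0717) nor CXCL11 (1.67, adjusted p = 0.218) was called. SLFN5, a Schlafen family member, had 411, 444 and 403 in MYC T58A, 4652, 4773 and 4705 in Resistant and 2183, 2405 and 2293 in Parental (MYC T58A against Parental, 5.47-fold lower; log2 difference -2.45, SE 0.0512, adjusted p = 6e-17). UBE2L6, the conjugating enzyme that hands ISG15 to HERC5, had 58.1, 74.1 and 63.4 in shMYC2-labelled cells and 1279, 1259 and 1346 in Resistant (19.8-fold lower; log2 difference -4.3, SE 0.0933, adjusted p = 1.11e-17), so that enzyme was low where HERC5 and ISG15 were high. APOBEC3G, a deaminase that mutates retroviral DNA, had 3.23, 1.04 and 2.05 in shMYC2-labelled cells and 254, 269 and 269 in Resistant, which is 125-fold lower (95% counting interval 57.8 to 345, adjusted p = 3.61e-16). It ran against the list under the shMYC1 label, at 1003, 979 and 934 in shMYC1-labelled cells (3.68-fold higher; log2 difference 1.88, SE 0.175, adjusted p = 5.53e-08). GBP5 had 45.2, 37.5 and 31.7 in shMYC2-labelled cells, 11.7, 11.3 and 13.7 in Resistant and at most 1.04 as the mean of any other group. The GBP5 call between shMYC2-labelled cells and Resistant was lost with a pseudocount of 0.1 (1.62, adjusted p = 0.152). It was also lost with the shift of neighbouring genes taken off (0.86, adjusted p = 0.0618).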

How the data were processed

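RNA of 15 A375 libraries was sequenced, and 1 table of gene-level values was used with all its columns (0 left out). The deposited values are a signal: read counts that the authors divided by a size factor per library. This was read from the values, which are whole multiples of 1 step per library (0.881 to 1.08) in 100% of cases within a tolerance of 0.01, and recomputed size factors differ from the steps by at most 0.0172%. Per the submitters' processing notes, Trim Galore, cutadapt, STAR, HTSeq and DESeq2 were used. Versions, the genome build, the annotation, the strand counted and the treatment of reads that fit several genes are not given in the sources used. The lowest maximum of any gene over the libraries was 10 reads, so the table had been filtered.

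Values were analysed as log2(value + 1), which understates fold changes at low values. The filter of at least 10 normalized reads in 3 or more libraries removed 1310 genes. With limma 3.58.1 in R 4.3.3 (mean-variance trend, robust variances), the 15 libraries were given a mean for each of the 5 groups. The plan asked for edgeR if the table held counts; since it holds normalized values, limma is the main test, and edgeR 4.0.16 and DESeq2 1.42.0 were run on the recovered reads as alternatives. Column names carry a running number and not the replicate number, so libraries are numbered 1 to 3 in column order within a group. P-values describe the spread between these libraries, which may be partly technical. Folds are ratios of group means. Where a whole group had no read, 3 reads in each of its libraries were assumed and the fold is a lower bound. With 9 or fewer reads in the lower group an exact 95% interval for counting is given. Neighbouring genes were the nearest 50 by GENCODE 29 order, in which 14913 genes were placed by symbol and 14194 had a window. Promoters came from RefSeq.

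The members, the pathway and marker lists and the rule for named genes were chosen with earlier results of these data known. The rule names, in each of the 5 comparisons, the 3 members with the largest called difference in each direction whose higher group averages at least 10, plus a fixed set of members, pathway genes and MYC. Other members and pathway genes were named after their values were seen. The limma script was tested on simulated data. A gene of the pathway list is counted in its totals but not reported here.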

Additional observations from a re-analysis of the deposited data

How the results depend on the processing

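The 10 counts of members called were recomputed under 198 alternatives, and 191 stayed within 1.5 times the reported count. These were other pseudocounts and filters, quantile and total scaling, limma without robust, edgeR, DESeq2, the 6 libraries of a comparison alone, the shift of neighbouring genes taken off, stricter calls, each library left out and, chosen after seeing the data, a fit without shMYC2-labelled cells. With a log2 difference of at least 0.5, 17 members were higher in Resistant than in Parental, 3 in MYC T58A than in Parental and 0 in MYC T58A than in Resistant, where quantile normalization gave 4. At an adjusted p under 0.01, 1 member was higher in shMYC1-labelled cells than in Resistant, and 1 to 3 were with each library left out. Of 175 called member differences, recomputed 3445 times, 3302 kept direction and call, 139 lost the call and 4 changed direction. Of 140 called pathway and MYC differences, recomputed 2754 times, 2672 kept both, 78 lost the call and 4 changed direction. Under quantile normalization shMYC2-labelled cells stood above Resistant in IRF9 (0.37), IFIT1 (0.12) and ISG20 (0.27). With the shift of neighbouring genes taken off, STAT2 (0.1) and JAK1 (0.13) changed direction in MYC T58A against Parental, TMEM173 (-0.21) in shMYC1-labelled cells against Resistant, and IL10RB (-0.28) and TYK2 (0.24) in shMYC2-labelled cells against Resistant. Other named calls lost outside the left-out libraries were, in Resistant against Parental, IFITM1 (0.93 with a pseudocount of 0.1, 0.94 by DESeq2), IFI6 (0.34 with the 6 libraries alone) and CMPK2 (-1.11 with a pseudocount of 0.1). In MYC T58A against Parental they were IRF9 (-0.83) and IFIT3 (-0.2) under quantile normalization. In shMYC1-labelled cells against Resistant they were IRF1 under quantile normalization (-0.14), by edgeR (-0.16) and with the 6 libraries alone (-0.18), OAS3 by edgeR (-0.3), with the 6 libraries alone (-0.35) and less the neighbours' shift (-0.26), and ISG15 with the 6 libraries alone (-0.49). IFNGR2 was lost there with the 6 libraries alone (-0.15) and less the neighbours' shift (-0.08). The IRF7 call was lost there with the 6 libraries alone (1.16), less the neighbours' shift (0.92) and in the fit without shMYC2-labelled cells (1.16). In shMYC2-labelled cells against Resistant they were IRF9 less the neighbours' shift (-0.36), IFNAR2 under quantile normalization (-0.16) and MAVS by edgeR (-0.25). No paired analysis was possible because the columns carry no replicate numbers. Members with under 10 reads a library in some group, among them XAF1, IRF9 and IFITM1, are limited by counting.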
